A study of Mus musculus with 4 samples.

Results

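The superoxide dismutase genes Sod1, Sod2 and Sod3, the catalase gene Cat and the peroxiredoxin genes Prdx1 to Prdx6 encode enzymes that remove superoxide and hydrogen peroxide. These 10 genes were chosen by name, and their probes were found by matching each probe's transcript identifier to RefSeq symbols. All 10 had at least 1 probe well above background, and they are set here among 16793 genes tested. They were represented by 14 probes, each printed once per array, and all 14 were well above background on all 4 arrays. The filter on dim probes therefore removed no member.

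RNA came from the dorsal hippocampus of female mice, dissected once a series of behavioural tests was complete, and was hybridised to 1-colour Agilent arrays after Cy3 labelling. One group received 20-fold iodine intake (2 arrays, labelled replicates 2 and 3) and the other was the control group (2 arrays, labelled replicates 2 and 3). The labels give no strain, no age and no start or length of the iodine intake, and they do not say that replicates were separate animals, so a p-value here reflects how far these samples spread, and that spread may be technical. The study's title concerns brain development under excess iodine, and the comparison asks how expression differed between the iodine and control groups.

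Superoxide, a by-product of respiration and of oxidase enzymes, is converted by superoxide dismutases to hydrogen peroxide. Hydrogen peroxide is then broken down by catalase in peroxisomes and by peroxiredoxins in most compartments of the cell. Peroxiredoxins reduce peroxides with a reactive cysteine and are mostly restored by thioredoxin, or in the case of Prdx6 by glutathione. In the thyroid, hydrogen peroxide is also the oxidant with which iodide is attached to thyroglobulin.

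The arrays were close in detection and correlation, but the groups differed in brightness and in outlier flags. The signal level used to scale each array was 149.7 and 144.3 in iodine, against 158.8 and 154.2 in control. Scaling therefore raised the iodine arrays relative to the control arrays. Outlier spots numbered 55 and 70 in iodine, against 47 and 52 in control. Of 56605 probes, 37533 and 37751 exceeded background on the iodine arrays, and 37893 and 37921 did so on the control arrays. No spot was saturated, and Pearson's r over genes was 0.9942 to 0.9957 between arrays (across genes, which are not independent replicates). All arrays lay on 1 slide and were scanned together, the iodine arrays in slide columns 3 and 4 and the control arrays in columns 1 and 2, so position and group cannot be told apart. Markers of hippocampal neurons were well above background for 13 of 13 genes. Markers of thalamus and habenula were above background for 8 of 10.

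Sequence upstream of the members is shown to give their regulatory context, since NRF2, the main inducer of antioxidant genes, and nuclear receptors act through short motifs. RefSeq promoter windows (assembly GRCm38.p6, 250 bases before to 50 after the start) were found for 8 of the 10 members, among 32851 windows in the table. The antioxidant response element core, searched as TGACNNNGC on both strands, was found in the windows of Sod1 and Prdx1, and it was present in 12.4% of all windows. The nuclear receptor half-site AGGTCA, on both strands, was found in the windows of Cat and Prdx3, against 16.3% of all windows. The 2 windows with the antioxidant response element core and 1 of the 2 with the half-site, that of Prdx3, are printed 5′ to 3′. For both Cat and Prdx3 the iodine arrays lay below the control arrays, as in 7 of the 10 members and 21.9% of all genes. In Cat, iodine replicate 3 and control replicate 2 were nearly equal. The printing of Prdx3 marks no difference between Cat and Prdx3. Capitals mark the antioxidant response element core on either strand in Sod1 (chr16:90220512-90220811, plus strand) and Prdx1 (chr4:116685349-116685648, plus strand), and the half-site in Prdx3 (chr19:60874489-60874788, minus strand). The 2 motifs share no base in these windows.
Sod1: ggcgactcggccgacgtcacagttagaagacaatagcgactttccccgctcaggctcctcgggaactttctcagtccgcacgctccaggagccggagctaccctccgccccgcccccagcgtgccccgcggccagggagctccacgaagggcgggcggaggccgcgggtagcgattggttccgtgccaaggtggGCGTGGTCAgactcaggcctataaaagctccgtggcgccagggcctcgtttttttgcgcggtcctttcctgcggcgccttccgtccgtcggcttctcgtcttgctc
Prdx1: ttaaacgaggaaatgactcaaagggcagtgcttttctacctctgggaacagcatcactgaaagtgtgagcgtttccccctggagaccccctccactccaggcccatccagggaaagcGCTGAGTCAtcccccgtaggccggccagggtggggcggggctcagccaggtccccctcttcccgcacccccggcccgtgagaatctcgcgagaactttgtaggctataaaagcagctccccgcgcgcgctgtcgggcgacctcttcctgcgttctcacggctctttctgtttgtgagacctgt
Prdx3: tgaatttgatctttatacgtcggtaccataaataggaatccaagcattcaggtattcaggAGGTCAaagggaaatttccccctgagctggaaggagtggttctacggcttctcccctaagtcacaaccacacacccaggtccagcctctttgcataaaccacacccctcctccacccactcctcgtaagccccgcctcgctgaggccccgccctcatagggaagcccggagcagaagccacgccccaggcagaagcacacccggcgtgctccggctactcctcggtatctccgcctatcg
All 8 member windows held a GC box (GGGCGG, both strands), which 35.7% of all windows did, and 3 held the letters TATAAA on either strand (Sod1, Prdx1 and Prdx3), which 13.6% of all windows did. The GC content of the 8 windows was 57% to 68.7%, and the median of all windows was 52.7%. They held 11 (Cat) to 34 (Sod1) CpG dinucleotides, where the median window held 7. A match describes the letters in a window and says nothing of binding.

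None of the 10 genes passed the threshold between 20-fold iodine and control, and their log2 differences ran from -0.17 to 0.03. Values are log2 processed signals scaled to each array's 75th percentile, and a difference is the iodine mean minus the control mean. The mean was lower in iodine for 8 of the 10 genes, as for 54.3% of all genes, with a median log2 difference of -0.09 against -0.01 over all genes. The size of the difference, regardless of sign, had a median of 0.09 in the members and 0.09 over all genes. By limma, 0 of the 10 genes had an adjusted p under 0.05 (smallest adjusted p = 0.705), as did 0% of all 16793 genes, and 0 of the 10 had an unadjusted p under 0.05, as 7.38% of all genes did. Both iodine arrays lay below both control arrays in 7 of the 10 genes, as in 21.9% of all genes, and above them in 1, as in 17.9% of all genes. The 95% confidence intervals of the 10 genes spanned 0.738-fold to 1.39-fold in all. By probe, 0 of the 14 had an adjusted p under 0.05 and 0 an unadjusted p under 0.05 (0% and 9.03% of all 38228 probes), while 9 of the 14 had both iodine arrays below both controls (18.4% of all probes) and 1 had them above (23.2%). No gene on the array passed the adjusted threshold, so the members are given below as values with their errors.

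The members' common position differed between arrays of the same group. Their median deviation from the 4-array mean was -0.04 on both iodine arrays, 0.00 on control replicate 2 and 0.08 on control replicate 3, so the control arrays differed from each other by more than the lower control differed from the iodine arrays. Over all genes the same medians were 0.01 and -0.02 on iodine replicates 2 and 3, and 0.01 and 0.01 on control replicates 2 and 3. Without control replicate 3 the members' median log2 difference was -0.04, and without control replicate 2 it was -0.13.

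**Figure D1:**
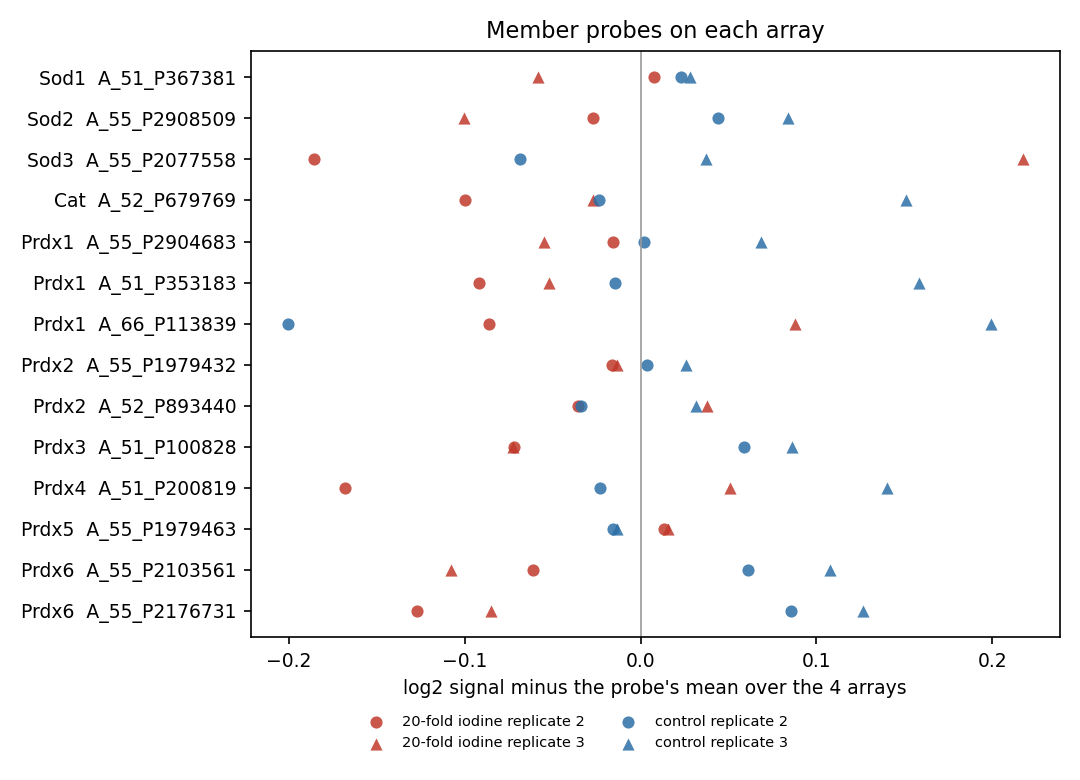
Log2 signal of each member probe on each array, minus that probe's mean over the 4 arrays (x axis, log2 units), with iodine arrays in red and control arrays in blue. Both probes of Prdx6 have the iodine arrays left of the control arrays, while in Sod3 the iodine arrays are the lowest and the highest of the 4.

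Sod1, the copper- and zinc-containing dismutase of the cytosol, had log2 signals of 13.14 and 13.07 in iodine, against 13.15 and 13.16 in control. The iodine arrays were the lower pair, although iodine replicate 2 lay closer to the controls than to iodine replicate 3. The log2 difference was -0.05 ± 0.07 (SE, n = 2 per group, limma adjusted p = 0.887), a fold of 0.965 with a 95% interval of 0.841 to 1.11. It was -0.02 without 20-fold iodine replicate 3 and -0.08 without 20-fold iodine replicate 2. Sod2, the manganese dismutase of the mitochondrial matrix, had 9.69 and 9.62 in iodine, against 9.76 and 9.80 in control. Again the pairs did not overlap, and the log2 difference was -0.13 ± 0.07 (SE, limma adjusted p = 0.753), a fold of 0.915 with an interval of 0.794 to 1.05.

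Sod3, the dismutase secreted into the extracellular space, varied most among the members. It had log2 signals of 8.29 and 8.69 in iodine, against 8.40 and 8.51 in control, so the iodine arrays lay on either side of the controls. The log2 difference was 0.03 ± 0.16 (SE, limma adjusted p = 0.976), with a fold interval of 0.754 to 1.39, the widest upward of the 10. It was 0.23 without 20-fold iodine replicate 2, -0.17 without 20-fold iodine replicate 3 and -0.02 without control replicate 2. The same 2 iodine arrays also differed in markers of tissue next to the hippocampus. The summed linear signal of the 10 choroid plexus markers, all well above background, was 12201 and 51915 in iodine replicates 2 and 3, against 32816 and 29342 in control replicates 2 and 3, and that of the 10 meningeal and fibroblast markers was 2408 and 4056 in iodine, against 3439 and 4371 in control. The 8 tested markers of thalamus and habenula summed to 1847 and 2796 in iodine, against 2212 and 1972 in control, while Gpr151 and Chrna3 of that list were not above background. The part of these markers in the Sod3 values was not tested. In bulk tissue, fewer cells of a type and less RNA per cell cannot be told apart, here and for every member.

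Cat encodes catalase, the heme enzyme of peroxisomes that splits hydrogen peroxide into water and oxygen. Its log2 signals were 7.84 and 7.91 in iodine, against 7.92 and 8.09 in control. Iodine replicate 3 and control replicate 2 were nearly equal, and control replicate 3 stood apart as the highest. The log2 difference was -0.13 ± 0.10 (SE, limma adjusted p = 0.782), a 95% interval of -0.39 to 0.13, and it was -0.04 without control replicate 3 and -0.21 without control replicate 2.

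Among the peroxiredoxins, 5 of 6 genes had a lower mean in iodine and 1 a higher mean, with 4 of the 5 lower without overlap (over all genes, 54.3% had a lower mean and 21.9% were lower without overlap). Prdx6 had the most negative difference of the 10 members. It encodes the 1-Cys peroxiredoxin of the cytosol, which also acts on phospholipid peroxides and as a phospholipase, and in brain is known as an astrocyte-enriched protein. Its brighter probe, A_55_P2103561, read 12.88 and 12.83 in iodine, against 13.00 and 13.05 in control. Its second probe, A_55_P2176731, read 10.15 and 10.20 in iodine, against 10.37 and 10.41 in control. Both probes separated the groups, and the 2 probes share the same 4 RNA samples, so they are not replicates. The gene's log2 difference was -0.17 ± 0.07 (SE, limma adjusted p = 0.705, unadjusted p = 0.0782), a fold of 0.890 with an interval of 0.775 to 1.02. The second probe, in the fit over all 38228 probes, gave -0.21 ± 0.08 (SE, limma adjusted p = 0.558, unadjusted p = 0.0524), a fold of 0.863. Over the 13 alternative settings the difference of Prdx6 stayed between -0.23 and -0.15, and its unadjusted p was under 0.05 in 3 of them, with adjusted p of 0.605 to 0.665 there.

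Astrocyte markers, all 10 well above background, had a summed linear signal of 41377 and 39231 in iodine, against 44157 and 44395 in control. Most of that sum was 1 gene, Aldoc, at 28512 and 26700 in iodine, against 31587 and 30773 in control. The other 9 summed to 12865 and 12530 in iodine, against 12570 and 13622 in control, and so overlapped. Of the 10, 6 had a lower mean in iodine and 4 a higher mean. As 2 examples chosen after their values were seen, Aldoc, the aldolase of astrocytes, read 14.80 and 14.70 in iodine, against 14.95 and 14.91 in control, while Gfap, their intermediate filament protein, read 10.67 and 10.53 in iodine, against 10.28 and 10.34 in control. The part of astrocyte content in the Prdx6 values was not tested.

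Prdx3, the 2-Cys peroxiredoxin of mitochondria, had log2 signals of 9.13 and 9.13 in iodine, against 9.27 and 9.29 in control. The replicates of each group lay close together and the groups did not overlap. The log2 difference was -0.14 ± 0.07 (SE, limma adjusted p = 0.726, unadjusted p = 0.104), a fold of 0.905 with an interval of 0.793 to 1.03, and leaving out any 1 array kept it between -0.16 and -0.13.

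Prdx1 and Prdx2, the 2-Cys peroxiredoxins of the cytosol, showed smaller differences by their brightest probes. Values varied between the probes of each gene, and that variation was not tested. The brightest Prdx1 probe, A_55_P2904683, read 11.79 and 11.75 in iodine, against 11.81 and 11.87 in control (log2 difference -0.07 ± 0.07, SE, limma adjusted p = 0.842), and the difference was -0.04 without control replicate 3. A second probe, A_51_P353183, read 10.04 and 10.08 in iodine, against 10.12 and 10.29 in control, a difference of -0.14 ± 0.10 (SE) that was -0.06 without control replicate 3 and -0.23 without control replicate 2. The third, A_66_P113839, read 8.00 and 8.17 in iodine, against 7.88 and 8.28 in control, so its controls lay outside the iodine arrays and the difference was 0.00 ± 0.17 (SE). For Prdx2 the brighter probe, A_55_P1979432, read 11.48 and 11.48 in iodine, against 11.50 and 11.52 in control, a log2 difference of -0.03 ± 0.07 (SE, limma adjusted p = 0.937) that was -0.02 without control replicate 3. Its other probe, A_52_P893440, read 9.57 and 9.65 in iodine, against 9.58 and 9.64 in control, with overlapping groups and a difference of 0.00 ± 0.08 (SE).

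Prdx2 is abundant in red blood cells, whose markers were well above background for 7 of 10 listed genes. Their summed linear signal was 24377 and 25125 in iodine, against 19139 and 25847 in control, lowest on control replicate 2, and their part in the Prdx2 values was not tested. RefSeq also lists pseudogenes of Prdx1, Prdx2 and Prdx6 and a second gene, Prdx6b, and whether the probes also read those was not tested, as probe sequences were not used here.

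Prdx4, the peroxiredoxin of the endoplasmic reticulum, had log2 signals of 7.49 and 7.70 in iodine, against 7.63 and 7.79 in control. The groups overlapped, and the log2 difference of -0.12 ± 0.12 (SE, limma adjusted p = 0.835) was -0.01 without 20-fold iodine replicate 2 and -0.04 without control replicate 3. It was -0.23 without 20-fold iodine replicate 3 and -0.20 without control replicate 2. Prdx5, an atypical 2-Cys enzyme of mitochondria, peroxisomes and cytosol, was the single member whose iodine arrays lay above both controls, at 12.08 and 12.08, against 12.05 and 12.05 in control. Its log2 difference was 0.03 ± 0.07 (SE, limma adjusted p = 0.939), a fold of 1.02 with an interval of 0.895 to 1.16. Before the arrays were scaled, the processed signals of Prdx5 were 4276 and 4129 in iodine, against 4446 and 4324 in control. There both iodine arrays lay below both controls, so the direction depended on the scaling. The difference of Prdx5 was 0.0043 with normexp and 0.0040 with arrays scaled to the median of their shared detected probes. It kept its sign in all 13 alternative settings, each of which scaled or normalized the arrays.

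**Figure D2:**
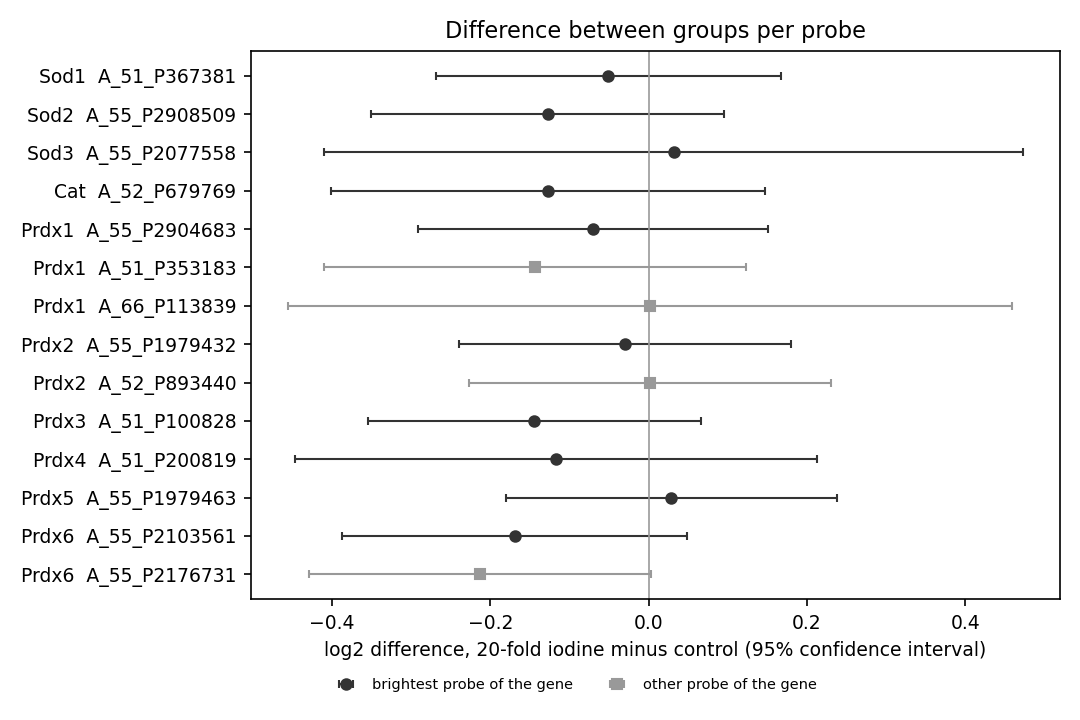
Log2 difference between 20-fold iodine and control for each of the 14 member probes (x axis), with 95% confidence intervals from limma fitted over all 38228 probes; circles are the brightest probe of a gene and squares its other probes. All 14 intervals include 0, and that of the second Prdx6 probe comes closest to leaving it out.

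**Figure D3:**
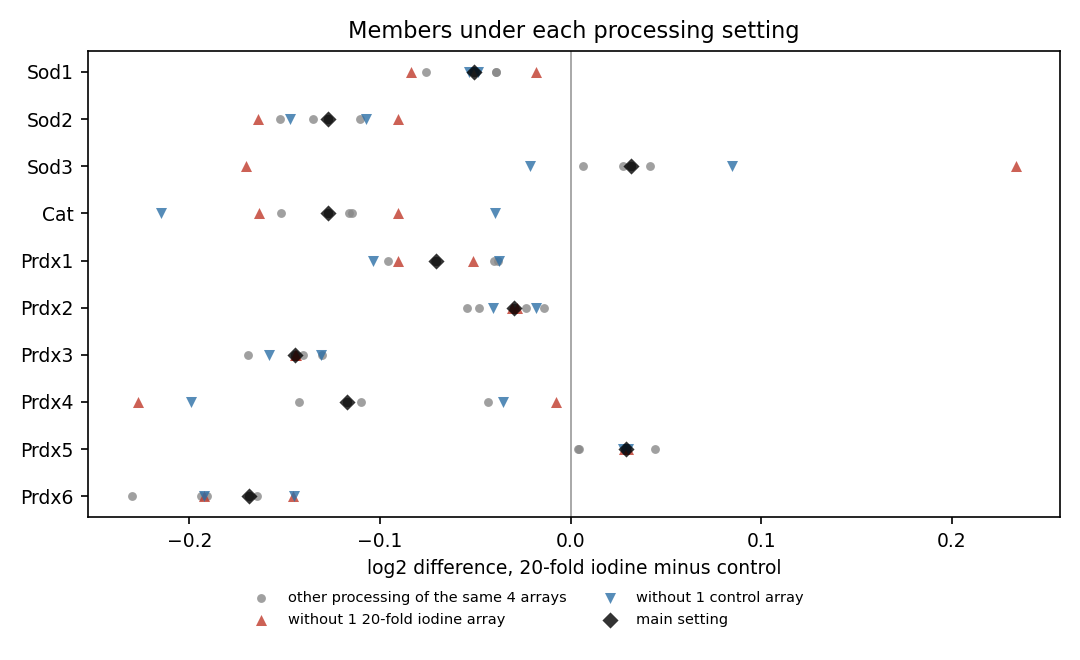
Log2 difference of each member (x axis) under the main setting (diamonds) and 13 alternatives, of which triangles leave out 1 array. Prdx6 and Prdx3 stay between -0.23 and -0.13 throughout, while Sod3 falls on both sides of 0 when single arrays are left out.

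Genes that work with these enzymes were read from 7 lists, and 0 of their 87 tested members passed limma's adjusted threshold, as did 0% of all genes, with 5 at an unadjusted p under 0.05, where 7.38% of all genes were. Of the 87, 55 (63.2%) had a lower mean in iodine, as 54.3% of all genes did, and 32 a higher mean, and the median log2 difference was -0.03. The groups did not overlap for 27 lower and 12 higher genes, against 21.9% and 17.9% of all genes. These counts include Nox1, the 1 gene of the 87 that was above background in a single group, and without it 4 of 86 had an unadjusted p under 0.05 and 11 were higher without overlap.

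Metal supply for the dismutases was tested through 10 genes, of which 8 were lower and 2 higher, with a median log2 difference of -0.06. Ccs, the chaperone that loads copper into Sod1, read 9.64 and 9.47 in iodine, against 9.66 and 9.67 in control (-0.11 ± 0.09, SE, with another probe at 0.04). Slc39a14, a transporter of zinc and manganese, read 7.85 and 7.78 in iodine, against 8.00 and 8.06 in control, a difference of -0.21 ± 0.08 (SE, limma adjusted p = 0.676). Slc31a2, a copper transporter, had -0.18 ± 0.09 (SE), with another probe at 0.09. Neither transporter nor the chaperone passed the threshold. Of the 10 genes, 4 were lower and 1 higher without overlap, against 21.9% and 17.9% of all genes.

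The thioredoxin, sulfiredoxin and sestrin list holds partners that restore peroxiredoxins, along with related genes such as Txnip, Txndc5 and Txndc12. The list split evenly, with 6 of 12 genes lower and 6 higher and a median of 0.01. The cytosolic pair Txn1 and Txnrd1 had log2 differences of -0.08 ± 0.07 and -0.15 ± 0.07 (SE), while the mitochondrial pair Txn2 and Txnrd2 had 0.06 ± 0.07 and 0.09 ± 0.08 (SE). Another probe of Txnrd1 was at -0.02, of Txn2 at 0.03 and of Txnrd2 at 0.10. The difference between the pairs was not tested. Of the 12 genes, 5 were lower and 2 higher without overlap, against 21.9% and 17.9% of all genes. Sesn1, a stress-induced sestrin, read 9.71 and 9.79 in iodine, against 9.94 and 10.02 in control (-0.23 ± 0.08, SE, limma adjusted p = 0.668). Txnip, which binds and inhibits thioredoxin, had -0.27 ± 0.12 (SE), with another probe at -0.12. Srxn1, which repairs overoxidised peroxiredoxins, had 0.04 ± 0.10 (SE), with overlapping groups.

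Glutathione peroxidases, the other route for removing peroxides, had 4 of 6 tested genes lower and a median of -0.06. Gpx4, which reduces lipid peroxides, had -0.09 ± 0.08 (SE) and Gpx1, the main cytosolic form, -0.05 ± 0.10 (SE). Gpx3, the secreted form, read 5.39 and 5.83 in iodine, against 5.40 and 5.06 in control, so the difference of 0.38 ± 0.20 (SE) rested on groups that overlapped. The other smallest p in this list was that of Gpx7, at 0.14 ± 0.10 (SE). Glutathione synthesis and recycling genes had 7 of 13 lower and a median of -0.02, with the smallest p for the glutathione-degrading enzymes Chac2 (-0.19 ± 0.08, SE) and Chac1 (-0.16 ± 0.11, SE).

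Peroxisome genes, which build and fill the compartment of catalase, had 9 of 15 lower and a median of -0.02. Pex13, part of the import pore docking complex, read 8.23 and 8.19 in iodine, against 8.56 and 8.41 in control (-0.28 ± 0.09, SE, limma adjusted p = 0.668). Pex6, an ATPase that recycles the import receptor, read 9.31 and 9.28 in iodine, against 9.05 and 9.16 in control (0.20 ± 0.08, SE, limma adjusted p = 0.696). Pex5, the receptor that brings in catalase, had -0.03 ± 0.08 (SE), with overlapping groups.

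Genes whose products make superoxide or hydrogen peroxide had 9 of 16 tested members lower and a median of -0.03. Xdh, a purine oxidase, read 4.72 and 4.81 in iodine, against 5.48 and 5.55 in control, a difference of -0.75 ± 0.08 (SE, limma adjusted p = 0.668), and both its probes had a lower mean. Nox1, an NADPH oxidase subunit, was well above background on both iodine arrays and on neither control array. Its log2 signals were 2.63 and 2.50 in iodine, against 2.22 and 2.22 in control. The estimated fold was 1.27, with an interval of 1.09 to 1.49 (limma adjusted p = 0.668). Nox1 passed the filter on dim probes through the iodine arrays alone, so its direction was fixed by that filter and is a description. The list for NRF2 and NADPH supply had 12 of 15 lower and a median of -0.05. Nfe2l2, which encodes NRF2 itself, read 6.96 and 7.22 in iodine, against 7.27 and 7.60 in control (-0.35 ± 0.16, SE, limma adjusted p = 0.724). Keap1, its inhibitor, had -0.03 ± 0.09 (SE), and Ppargc1a, a coactivator of mitochondrial genes, had -0.20 ± 0.12 (SE, limma adjusted p = 0.751).

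**Figure D4:**
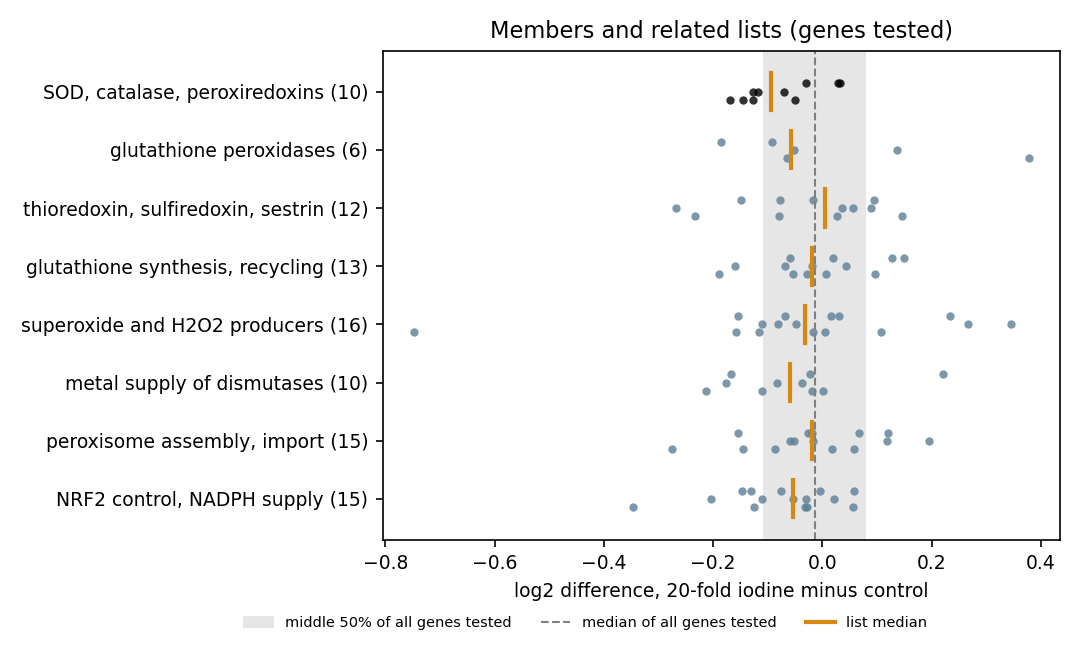
Log2 difference between 20-fold iodine and control (x axis) for the 10 members and the tested genes of 7 related lists (rows, number of genes in brackets); orange bars are list medians and the grey band holds the middle 50% of all 16793 genes, from -0.106 to 0.0787. The list medians run from -0.09 to 0.01, against -0.01 over all genes, and single genes of each list lie on both sides of 0.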

How the data were processed

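Per the file headers, the authors deposited Agilent Feature Extraction 12.1.1.1 output for each array. Per the file headers, the deposited intensity (processed signal) was background-subtracted and spatially detrended by the authors, and not normalized between arrays. Flags (well above background, saturated, outlier) were used as deposited. Array design names build mm9, so gene coordinates are not given, and printed promoters come from RefSeq GRCm38.p6.

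Log2 processed signals were averaged over a probe's spots without outlier flags, and each array's 75th percentile was subtracted, with the mean percentile added back. Kept probes exceeded background on 2 or more of 4 arrays (38228 after 3 with every spot on an array flagged were left out). RefSeq transcripts named 32994 of 56605 probes (58.3%), and each gene was read from its brightest kept probe. Limma 3.58.1 in R 4.3.3 (lmFit, eBayes, two-sided, Benjamini-Hochberg over all 16793 genes or 38228 probes, threshold 0.05) was tested on simulated data. With 2 arrays per group an exact permutation test cannot go below p = 0.333, so none was used. Members and lists were chosen with earlier results of these data known. Named genes are the 10 members, the 2 smallest p of each list and 11 fixed partners. Normexp used median spot signals, since mean signals were not in the files.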

Additional observations from a re-analysis of the deposited data

How the results depend on the processing

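No member and no member probe passed limma's adjusted threshold under any of the 13 gene-level or 11 probe-level alternatives. The smallest adjusted p of a member was 0.605, and that of a member probe 0.318, both of Prdx6 with normexp. Over all genes 0 passed in each alternative, and over all probes 25 passed with normexp and 53 with an intensity trend and robust variances, with no member among them. The members' lower means stayed at 8 or 9 of 10. Their median log2 difference was -0.0458 with normexp, and -0.119 when arrays were scaled to the median of their shared detected probes, which moved the median of all genes to -0.0389. It was -0.126 to -0.0386 with 1 array left out. Sod3 ranged from -0.170 to 0.233 with 1 array left out. The Prdx1 probe A_66_P113839 was -0.0151 with normexp and -0.0236 with the median scaling, and -0.199 to 0.202 with 1 array left out. The Prdx2 probe A_52_P893440 was -0.0590 with normexp, -0.0230 with the median scaling and -0.0346 to 0.0385 with 1 array left out. With normexp Prdx1 was -0.0381, Prdx2 -0.0483 and Prdx4 -0.0434, and with the median scaling Sod3 was 0.00668 and Prdx2 -0.0545. Prdx1 and Prdx5 were -0.0403 and 0.0442 with quantile normalization, and Prdx2 was -0.0138 as the mean of its probes. The cause of these moves was not tested. In those fits the lone array is taken to spread as the other group does. The labels do not say whether the replicate numbers pair the samples. The correlation of deviations between arrays of the same number was -0.0245 over genes, which so few arrays per group cannot turn into an answer. With the replicate block 0 genes passed, the members' smallest adjusted p was 0.768 and their median was -0.09. The block lowered the SE of Sod3 (0.16 to 0.116), Cat (0.0953 to 0.0855) and Prdx4 (0.117 to 0.0821), and raised it for the other member genes. The number of arrays limits the precision.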
